A study of Mus musculus with 6 samples.

Results

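Thbs1, Tnc, Prg4 and Sfrp2 encode secreted proteins of the matrix around cells, and they are 4 of the 149 genes in the authors' deposited table. They were chosen by symbol from that table, which lists only genes that the authors found changed between mice given trimethylamine N-oxide (TMAO) before cardiac injury and mice with the injury alone. Every difference between the groups reported here is therefore part of how the genes were chosen. It is given as a description, without a test.

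The TMAO+IR mice were male wild-type C57BL/6 mice that took 0.12% TMAO in their drinking water, starting 4 weeks before cardiac ischaemia-reperfusion (IR) and continuing through it. TMAO is a gut-derived metabolite of choline and carnitine. The IR mice were male wild-type C57BL/6 mice with the same surgery and no TMAO. Both groups had 45 min of ischaemia by ligation of the left anterior descending artery and 24 h of reperfusion, so no uninjured heart is in the comparison. RNA of the injured region was sequenced in 3 libraries per group, numbered in the labels without naming animals. The comparison addresses how TMAO alters gene expression in the reperfused heart.

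Matricellular proteins are secreted into the matrix but act mainly on cell adhesion, protease activity and growth factor access, with little part in its mechanical frame. Thrombospondin 1 (Thbs1) binds the receptors CD47 and CD36 and can activate latent TGF-beta. Tenascin C (Tnc) loosens cell adhesion and is scarce in the healthy adult heart but is induced around infarcts. Proteoglycan 4 or lubricin (Prg4) is a mucin-like lubricant of joint surfaces that also binds CD44. Secreted frizzled-related protein 2 (Sfrp2) binds Wnt ligands and modulates Wnt signalling.

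Promoter windows from RefSeq on GRCm38.p6, running from 250 bases before to 50 bases after the transcription start, were matched for Tnc and Sfrp2. No window was available here for Thbs1 and Prg4, so only those of Tnc and Sfrp2 are shown. Levels of Tnc and Sfrp2 differed in opposite directions between the groups. The Tnc window lies on the minus strand at chr4:64046966-64047265 and the Sfrp2 window on the plus strand at chr3:83766071-83766370. Both are written 5′ to 3′ in the direction of transcription, and capitals mark every match to the searched motifs on either strand.
Tnc: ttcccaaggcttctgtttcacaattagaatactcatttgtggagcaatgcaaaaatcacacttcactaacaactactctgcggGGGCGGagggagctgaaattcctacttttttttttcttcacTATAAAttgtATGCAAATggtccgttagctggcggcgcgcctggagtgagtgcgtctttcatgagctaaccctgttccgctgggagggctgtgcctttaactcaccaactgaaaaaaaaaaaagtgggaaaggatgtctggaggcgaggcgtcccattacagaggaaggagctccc
Sfrp2: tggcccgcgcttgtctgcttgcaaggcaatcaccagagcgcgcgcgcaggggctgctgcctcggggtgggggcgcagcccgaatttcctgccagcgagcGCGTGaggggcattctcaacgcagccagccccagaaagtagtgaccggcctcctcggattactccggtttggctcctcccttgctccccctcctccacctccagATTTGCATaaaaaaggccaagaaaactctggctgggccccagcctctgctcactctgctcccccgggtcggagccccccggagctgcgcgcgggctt

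Both windows held the octamer ATGCAAAT, which 1.74% of the 32851 promoters in the table contain. Its match begins 116 bases before the start of Tnc on the coding strand and 47 bases before the start of Sfrp2 on the opposite strand. The Tnc window also held the TATA box core TATAAA (13.6% of promoters), 126 bases before the start, and the GC box GGGCGG (35.7%), 167 bases before it. The Sfrp2 window held the dioxin response core GCGTG (32.4%), 151 bases before the start. The letters of the AP-1 site TGANTCA (7.81% of promoters), the MCAT core CATTCC (14.7%) and the EGR site GCGTGGGCG (0.612%) were in neither window. The motifs do not overlap each other in these windows, and they were chosen with the sequences in view. Only these letters were searched, so variants of them were not marked. Whether any match acts as a TATA box or other promoter element was not tested. GC content was 47.3% in the Tnc window and 66.0% in the Sfrp2 window, against a median of 52.7% over all promoters. A further RefSeq start of Tnc lies 79 bases downstream. Its window holds the same TATA core, GC box and octamer and, 21 bases after that start on the opposite strand, the dioxin response core as well.

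The libraries held between 18370943 and 22442171 fragments, a size worked out from the deposited counts and FPKM (fragments scaled to transcript length and library size). FPKM compares levels between genes, and the scaled count, a count divided by the relative library size, compares libraries for a gene. The highest adjusted p-value (FDR) in the authors' deposited table is 0.0487, and no fold change in it, up or down, is below 1 on the log2 scale. The list makes up 1.17% of the 12721 genes that its FDR and p-values imply were tested. The genes just inside its limits were Cyp1b1 for the fold change and Aim2 for the FDR, and genes outside it were not analysed here. Of 14 cardiomyocyte markers only Myh7 is in the list, so the labelled tissue was not checked further.

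Thbs1, the most abundant of the 4, was higher in TMAO+IR. It had 246, 279 and 170 FPKM in TMAO+IR replicates 1, 2 and 3, against 70.6, 143 and 62.0 FPKM in IR replicates 1, 2 and 3. The groups did not overlap, but IR replicate 2 stood well above the other IR libraries and close to TMAO+IR replicate 3. These values rest on 26439, 35099 and 20646 counts in TMAO+IR and on 8544, 18424 and 8128 counts in IR, so counting error is small. The share of each library taken by all listed genes moved with Thbs1, at 0.944%, 1.08% and 0.678% in TMAO+IR and 0.354%, 0.505% and 0.330% in IR. This share contains Thbs1, which made up 11.0% to 16.6% of the listed counts, and 81.9% of the listed genes were higher in TMAO+IR. Some of the likeness is therefore built in, and the part of this share in the result was not tested. Thbs1 averaged 231 ± 56.0 FPKM in TMAO+IR and 92.0 ± 44.6 FPKM in IR (SD, n = 3 each). The ratio of mean scaled counts was 2.52 (log2 1.33). The lowest TMAO+IR library was 1.18 times the highest IR library, and the highest TMAO+IR library was 4.50 times the lowest IR library. By mean FPKM, Thbs1 ranked 1 of the 149 listed genes in TMAO+IR and 2 in IR.

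Tnc, the matricellular gene of the infarct border, was also higher in TMAO+IR, at a level far below that of Thbs1. It had 3.94, 4.90 and 2.96 FPKM in TMAO+IR replicates 1, 2 and 3, against 1.23, 2.32 and 1.21 FPKM in IR replicates 1, 2 and 3. The order of the libraries within TMAO+IR was that of Thbs1, and IR replicate 2 was again the highest IR library. The counts were 514, 749 and 438 in TMAO+IR and 178, 363 and 189 in IR. Tnc averaged 3.93 ± 0.970 FPKM in TMAO+IR and 1.59 ± 0.635 FPKM in IR (SD, n = 3 each), a ratio of mean scaled counts of 2.5 (log2 1.32).

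Prg4, the lubricin gene, was higher in TMAO+IR by a smaller ratio than Thbs1 and Tnc. It had 35.9, 27.6 and 31.7 FPKM in TMAO+IR replicates 1, 2 and 3, against 11.4, 18.4 and 16.0 FPKM in IR replicates 1, 2 and 3. No IR library reached the lowest TMAO+IR library, and IR replicate 1 was the lowest of all. The counts were 989, 1198 and 1160 in TMAO+IR and 338, 675 and 726 in IR. Prg4 averaged 31.7 ± 4.13 FPKM in TMAO+IR and 15.3 ± 3.60 FPKM in IR (SD, n = 3 each), a ratio of mean scaled counts of 2.08 (log2 1.06). Scaled counts separated the groups more widely than those of Thbs1 or Tnc, with the lowest TMAO+IR library at 1.66 times the highest IR library.

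Sfrp2, the Wnt modulator, went the opposite way and was lower in TMAO+IR. It had 0.52, 0.42 and 0.70 FPKM in TMAO+IR replicates 1, 2 and 3, against 0.84, 1.36 and 1.94 FPKM in IR replicates 1, 2 and 3. The groups did not overlap, and IR replicate 3 was the highest library. Sfrp2 averaged 0.547 ± 0.142 FPKM in TMAO+IR and 1.38 ± 0.550 FPKM in IR (SD, n = 3 each), a log2 ratio of mean scaled counts of -1.35. These are few fragments, with 19, 18 and 29 counts in TMAO+IR and 35, 60 and 87 counts in IR. The gap between the closest libraries of the groups lies within counting error. The exact 95% Poisson interval is 19.4 to 41.6 for the 29 counts of TMAO+IR replicate 3 and 24.4 to 48.7 for the 35 counts of IR replicate 1. The libraries furthest apart did not overlap, at 10.7 to 28.4 for TMAO+IR replicate 2 and 69.7 to 107 for IR replicate 3. Such intervals cover counting error only.

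**Figure D1:**
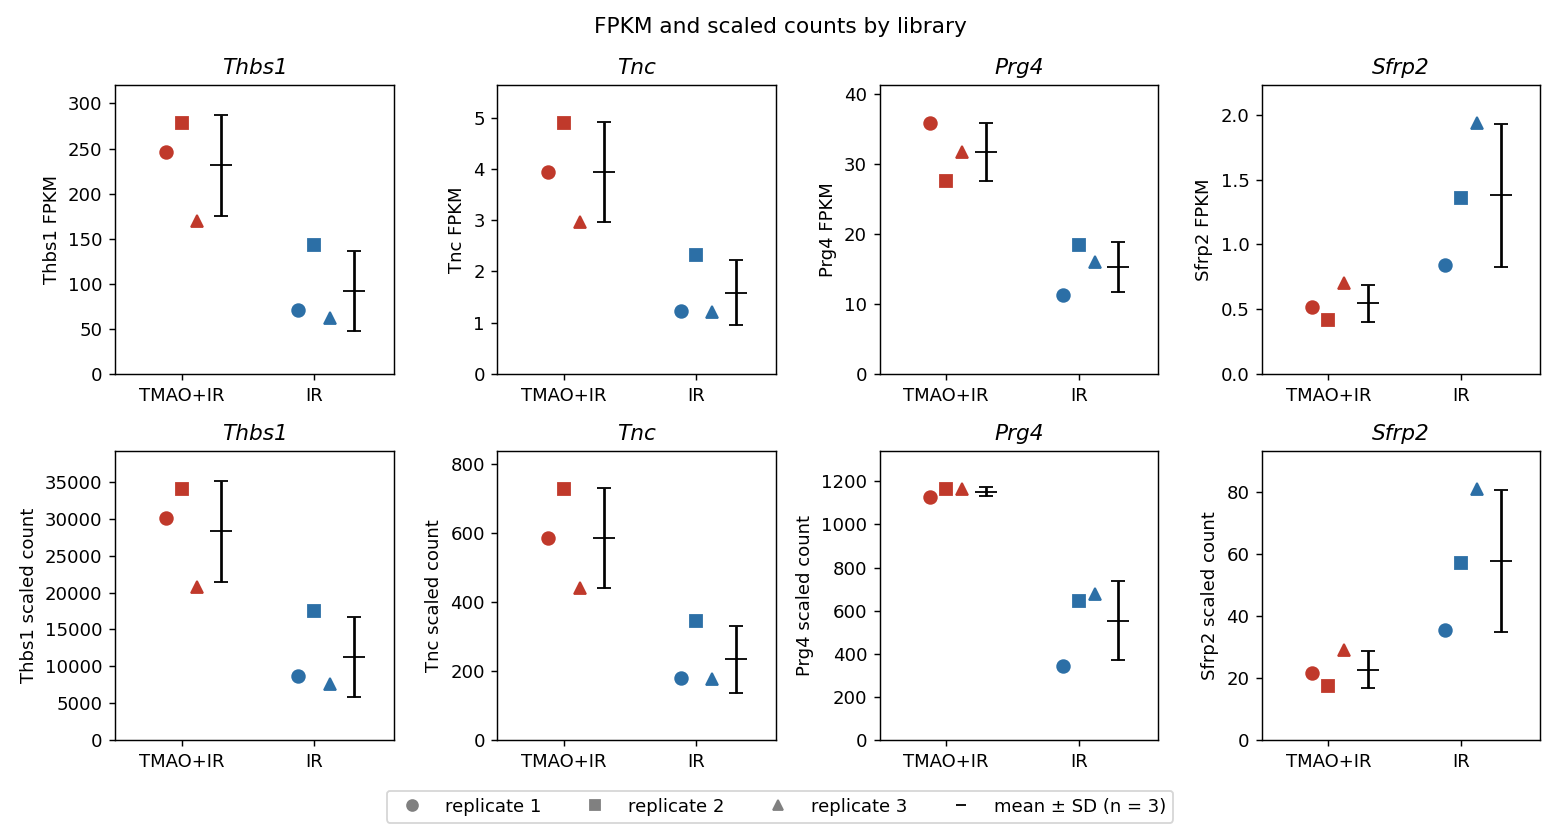
FPKM (top row) and scaled counts (bottom row) of Thbs1, Tnc, Prg4 and Sfrp2 on linear axes from 0, with 1 point per library, red for TMAO+IR and blue for IR, and a bar for the mean ± SD (n = 3 per group). Thbs1, Tnc and Prg4 sit higher in all TMAO+IR libraries and Sfrp2 lower, and the Prg4 scaled counts of TMAO+IR lie close together while its FPKM spread from 27.6 to 35.9.

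Thus 3 of the 4 genes were higher in TMAO+IR, against 81.9% of the listed genes, and 1 was lower, against 18.1%. Neither group overlapped the other in any of the 4 genes, as in 97.3% of the listed genes by scaled counts, a share that selection sets. The values that put the genes on the list were FDRs of 0.00239 for Thbs1, 0.00227 for Tnc, 0.0154 for Prg4 and 0.0406 for Sfrp2 in the authors' deposited table. Sfrp2 therefore stands near the FDR limit, at rank 140 of 149, and Prg4 near the fold limit, with a log2 fold change of 1.06 in the authors' deposited table. The median log2 fold change was 1.22 over the 122 higher genes and -1.21 over the 27 lower genes of the authors' deposited table. TMM factors computed from the listed genes centre genes chosen for their change, most of them higher. Under these factors the median over all listed genes shifted by -1.03 on the log2 scale. A higher gene keeps its sign there only if its change exceeds about the size of that shift. The log2 ratios of the 4 genes kept their signs, at 0.34 for Thbs1, 0.31 for Tnc, 0.0074 for Prg4 and -2.39 for Sfrp2. In tissue RNA, a change in the number of cells that express a gene and a change in RNA per cell cannot be told apart.

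**Figure D2:**
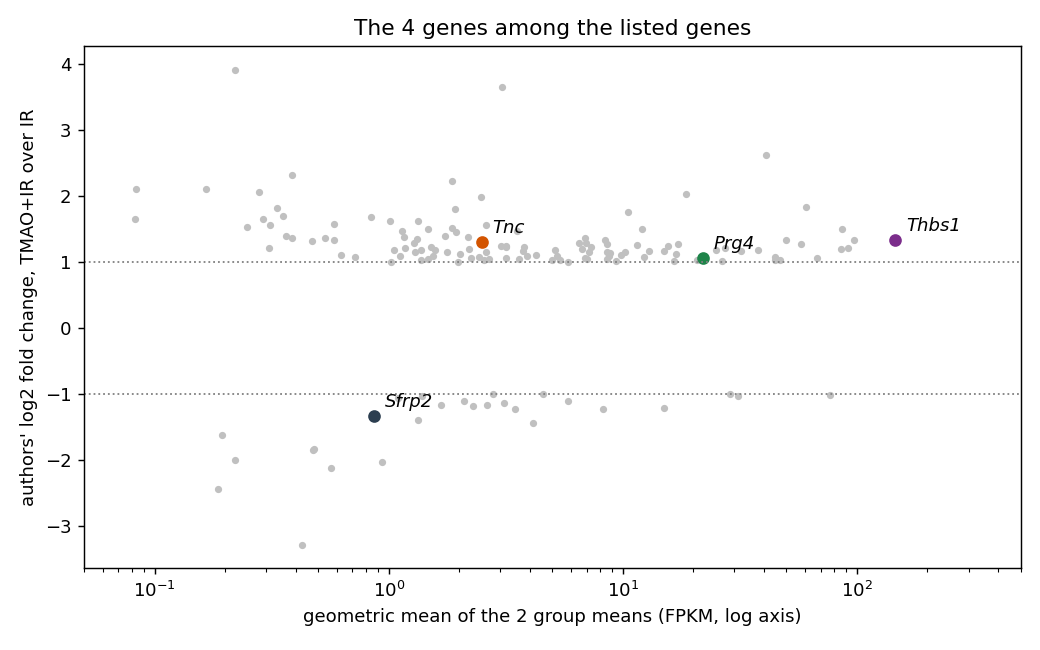
The authors' log2 fold change of TMAO+IR over IR against the geometric mean of both group means in FPKM (log axis), with 1 grey point for each of the 148 listed genes above 0 in both groups, coloured points for Thbs1, Tnc, Prg4 and Sfrp2, and dotted lines at the fold limits of the list. Thbs1 lies at the right end of the abundance range, Sfrp2 among the lower genes at low abundance and Prg4 close to the upper limit.

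Count ratios within a library do not depend on the library size, and they set the opposite directions side by side. Thbs1 had 1392, 1950 and 712 counts per Sfrp2 count in TMAO+IR replicates 1, 2 and 3, against 244, 307 and 93.4 in IR replicates 1, 2 and 3. The mean log2 ratio was 10.28 ± 0.74 in TMAO+IR and 7.58 ± 0.91 in IR (SD, n = 3 each), a difference of 2.70. Tnc had 27.1, 41.6 and 15.1 counts per Sfrp2 count in TMAO+IR, against 5.09, 6.05 and 2.17 in IR, a difference in mean log2 ratio of 2.66. Prg4 had 52.1, 66.6 and 40.0 counts per Sfrp2 count in TMAO+IR, against 9.66, 11.3 and 8.34 in IR, a difference of 2.42. In none of the 3 ratios did the groups overlap, which follows from genes that were selected in opposite directions and did not overlap themselves. TMAO+IR replicate 3 and IR replicate 3 were the lowest of their group in each. Sfrp2, the shared denominator, had its highest counts of each group in these libraries, at 29 and 87.

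Thbs1 and Tnc, by contrast, kept nearly the same ratio in every library. Thbs1 had 51.4, 46.9 and 47.1 counts per Tnc count in TMAO+IR replicates 1, 2 and 3, against 48.0, 50.8 and 43.0 in IR replicates 1, 2 and 3. The mean ratio was 48.5 ± 2.57 in TMAO+IR and 47.3 ± 3.93 in IR (SD, n = 3 each), and the groups overlapped. Its highest value was 1.2 times its lowest, although the scaled counts of Thbs1 and Tnc varied 4.50-fold and 4.13-fold over the same libraries. The coefficient of variation of the ratio over the 6 libraries was 6.36%, close to the 5.72% that counting error alone gives. Thbs1 per Prg4 varied more, with a coefficient of 30.4% against 3.86% from counting. Ratios to other listed genes were not computed, so a steady ratio cannot be called particular to Thbs1 and Tnc.

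**Figure D3:**
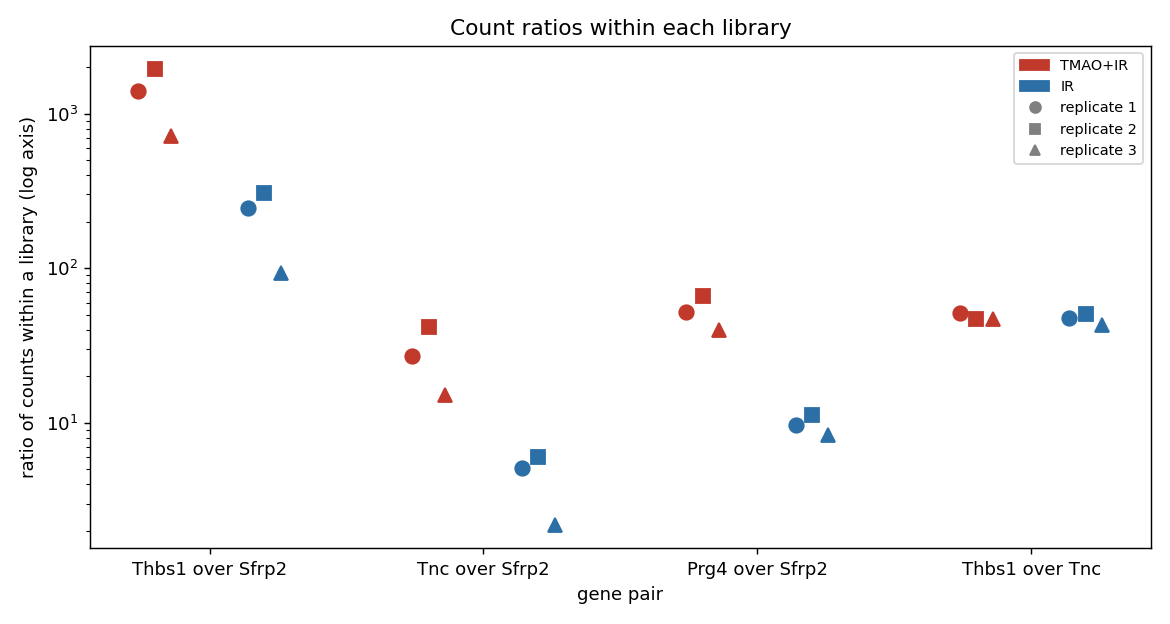
Ratio of counts within each library (log axis) for Thbs1 over Sfrp2, Tnc over Sfrp2, Prg4 over Sfrp2 and Thbs1 over Tnc, with TMAO+IR in red on the left, IR in blue on the right and a marker shape for each replicate number. The ratios to Sfrp2 are higher in every TMAO+IR library, while Thbs1 over Tnc stays between 43.0 and 51.4 in all 6 libraries.

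The profiles of the genes were compared by the root mean square distance of log2(scaled count + 1) over the 6 libraries, each gene centred on its own mean. The genes compared were the listed genes with a mean of at least 50 counts. Sfrp2, with a mean of 41.3 counts, is below that limit, so its own distances to these 117 genes are given but it could not appear as a near gene of another. Tnc was the nearest of 116 genes to Thbs1, and Thbs1 the nearest of 116 to Tnc, at a distance of 0.0862 against a median of 0.365 from Thbs1 to all of them. Next to Thbs1 came Nlrc5, a regulator of MHC class I transcription (0.121), and Il33, which encodes an alarmin cytokine (0.133). Next to Tnc came Il33 (0.0950) and Nlrc5 (0.129). Prg4 was not among the near genes, at rank 93 from Thbs1 (0.488) and rank 82 from Tnc (0.421). The 3 nearest to Prg4 were H2-Q6, a non-classical MHC class I gene (0.142), Cd80, a T cell costimulatory ligand (0.159), and Slfn1, a schlafen gene (0.163). H2-Q6 and Slfn1 belong to families of similar copies, and their counts are uncertain. The 3 nearest to Sfrp2 were Ctf1, the cardiotrophin 1 gene (0.266), Spc24, a kinetochore gene (0.337), and Inka1 (0.339), all of them lower in TMAO+IR. This distance includes the group difference that selected the genes, so a shared direction among near genes is largely built in.

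Centring each gene on its mean in each group removes the difference that selected the list and leaves the spread among libraries of the same group. Thbs1 and Tnc remained close, at 0.0834. Runx1, a transcription factor gene, was the nearest to Tnc (0.0748) and the second nearest to Thbs1 (0.0962), followed by Fgl2, a prothrombinase gene, for Thbs1 (0.114) and by Il33 for Tnc (0.0898). Prg4 was again nearest to Cd80 (0.139), H2-Q6 (0.140) and Slfn1 (0.162). Sfrp2 was nearest to Prg4, at 0.237, then to Ctf1 (0.265) and Cd80 (0.288). Prg4 differed between groups in the opposite direction to Sfrp2. The order of these near genes is uncertain, because counting error of Sfrp2 was 21.8% per library in TMAO+IR and 13.8% in IR. IR replicate 1 was the lowest IR library for both Sfrp2 and Prg4, and IR replicate 3 the highest by scaled counts.

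**Figure D4:**
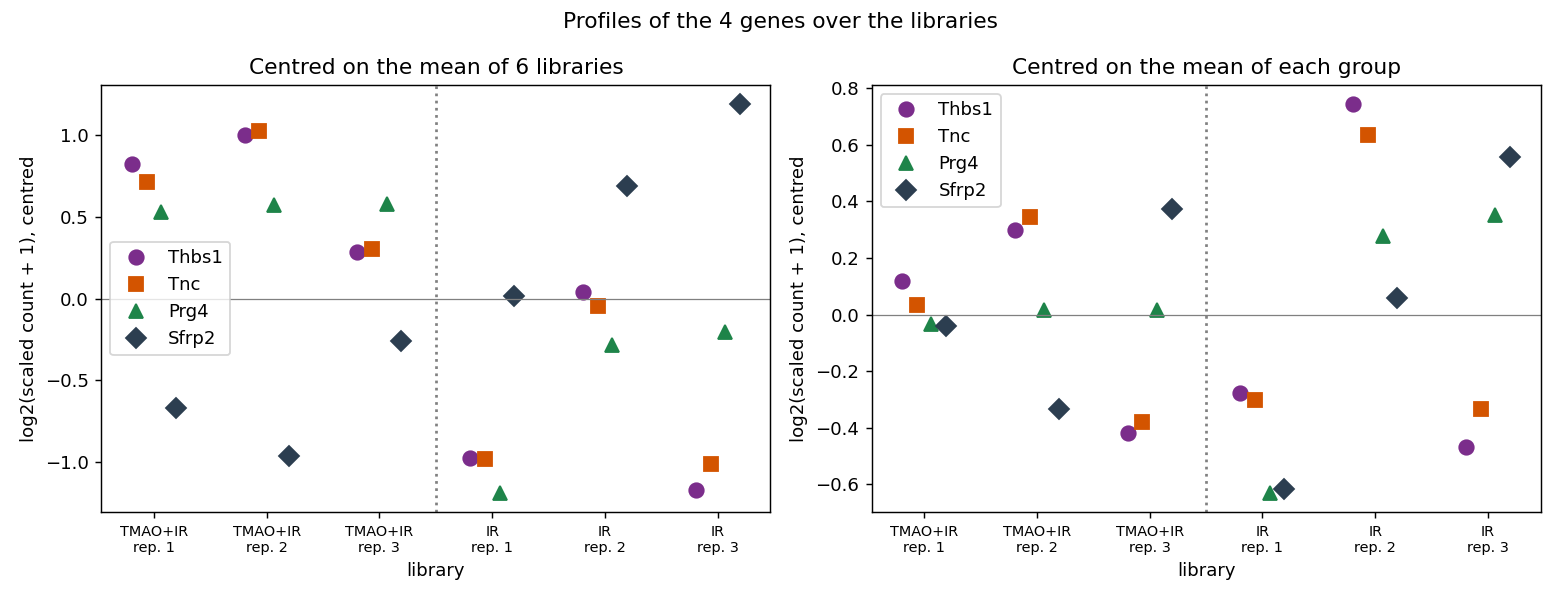
Centred log2(scaled count + 1) of Thbs1, Tnc, Prg4 and Sfrp2 by library, centred on the mean of 6 libraries (left) and on the mean of each group (right), with a marker and colour for each gene and TMAO+IR left of the dotted line. Thbs1 and Tnc nearly coincide in each library, at a distance of 0.0862 on the left and 0.0834 on the right, and Prg4 and Sfrp2 lie elsewhere.

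Gene models came from GENCODE M21 on GRCm38. Thbs1 (ENSMUSG00000040152) lies on the plus strand of chromosome 2 at 118111876 to 118127133, and its coding transcript has 22 exons and 5848 bases. Tnc (ENSMUSG00000028364) spans 63959785 to 64047015 on chromosome 4, minus strand, with 4 coding transcripts of up to 7106 bases. Prg4 (ENSMUSG00000006014) spans 150449412 to 150466165 on chromosome 1, minus strand, with 8 coding transcripts of 337 to 4263 bases. Sfrp2 (ENSMUSG00000027996) lies on the plus strand of chromosome 3 at 83766321 to 83774316, with 3 exons and 2003 bases in its coding transcript. Each gene overlaps an annotated gene on the opposite strand, namely Gm29233 for Thbs1, 8030451A03Rik for Tnc, Tpr for Prg4 and Gm26771 for Sfrp2. Whether counting used strand is not given in the labels, so reads of overlapping stretches cannot be told apart.

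The count, the FPKM and the library size together imply the transcript length by which the authors' FPKM divided each count. For Thbs1 this length was 5842 to 5853 bases in the 6 libraries and for Sfrp2 1989 to 2015 bases, close to their coding transcripts. For Tnc it was 6960 to 7116 bases. Prg4 differed from these. Its implied length was 1501, 2015 and 1755 bases in TMAO+IR replicates 1, 2 and 3, against 1440, 1665 and 2027 bases in IR replicates 1, 2 and 3. The groups overlapped, and all 6 values were well below the longest Prg4 transcript. The coefficient of variation of 14.4% ranked 7 among the 86 genes that reached 1 FPKM in all libraries, whose median was 2.54%. Within TMAO+IR, Prg4 scaled counts varied by 1.92%, less than the 3.0% of counting error, while its FPKM were 31.7 ± 4.13 (SD, n = 3). The ratio of group means was 2.08 by either measure.

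**Figure D5:**
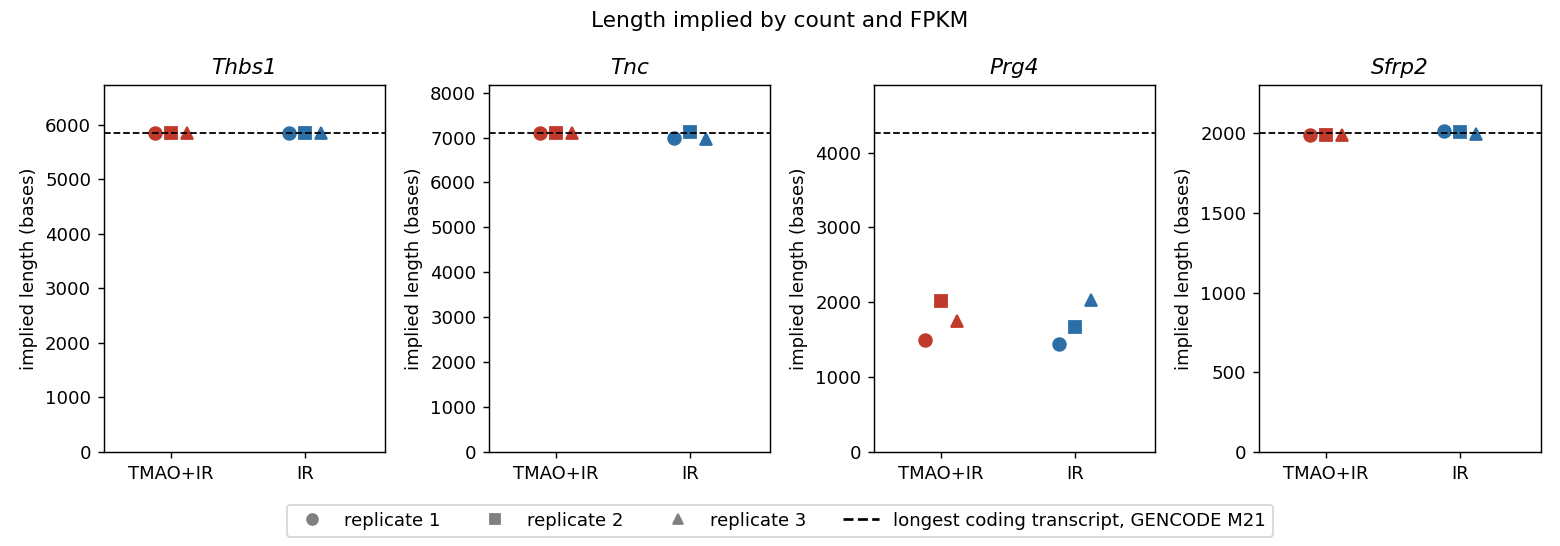
Transcript length in bases implied by count, FPKM and library size for each gene, on linear axes from 0, with 1 point per library, TMAO+IR in red and IR in blue, and a dashed line at the longest coding transcript of GENCODE M21. Thbs1, Tnc and Sfrp2 lie on or near their lines, while Prg4 varies from 1440 to 2027 bases under a line at 4263.

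The other genes of the same biology were taken from 16 lists of 274 different genes, chosen with earlier results of these data known. Of these genes 18 are in the authors' deposited table, and the 14 besides Thbs1, Tnc, Prg4 and Sfrp2 were all higher in TMAO+IR, where 81.9% of the listed genes are. TMM scaling within the list centres genes chosen for their change. It kept 13 of the 14 higher and put Lrrc32 at a log2 ratio of -0.0024. Staying higher there means only a change that exceeds about the size of the list-wide shift. Over all genes implied to have been tested, 1.17% are listed. Of 33 matricellular genes 2 are listed, Thbs1 and Tnc. Of 18 secreted Wnt modulators 1 is listed, Sfrp2. None of 22 receptor genes and none of 31 structural matrix genes, such as collagens, fibronectin and laminins, is listed, and their values were not analysed here.

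The lubricin and hyaluronan list had 4 of 18 genes listed, where 1.17% of all genes tested are. The lists were chosen with earlier results known, so such shares were not tested. Its listed members besides Prg4 were the hyaluronan synthases Has1 and Has2 and Tnfaip6, which crosslinks hyaluronan. Has1 had 29.6, 34.8 and 15.5 FPKM in TMAO+IR replicates 1, 2 and 3, against 9.25, 13.6 and 10.3 FPKM in IR replicates 1, 2 and 3. Tnfaip6 averaged 10.9 ± 3.21 FPKM in TMAO+IR and 4.45 ± 0.827 FPKM in IR (SD, n = 3 each). Of 24 matrix protease and inhibitor genes 3 are listed. Adamts1, a secreted protease with thrombospondin-type repeats, averaged 97.8 ± 18.2 FPKM in TMAO+IR and 46.6 ± 10.7 FPKM in IR. Adamts4, an aggrecanase of the same family, averaged 37.6 ± 7.98 FPKM in TMAO+IR and 18.5 ± 7.01 FPKM in IR. Mmp8, the neutrophil collagenase, averaged 10.1 ± 1.42 FPKM in TMAO+IR and 4.87 ± 1.68 FPKM in IR. Of 18 genes for the handling of TGF-beta and BMP ligands, 2 are listed: Inhba, a subunit of activin, and Lrrc32, which holds latent TGF-beta at the cell surface. Lrrc32 averaged 29.6 ± 8.98 FPKM in TMAO+IR and 14.5 ± 3.80 FPKM in IR (SD, n = 3 each).

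Listed markers of other cell types were higher in TMAO+IR, like Thbs1, Tnc and Prg4, and their part in the results was not tested. The counts of listed markers stand beside 1.17% of all genes tested. Of 12 platelet genes 1 is listed, Ppbp, and platelets store thrombospondin 1. Ppbp had 9.09, 8.70 and 5.41 FPKM in TMAO+IR replicates 1, 2 and 3, against 3.48, 4.16 and 2.55 FPKM in IR replicates 1, 2 and 3. Its lowest library in each group was that of Thbs1. These libraries also had the lowest share of all listed genes in their group, 0.678% and 0.330%, so this is not particular to Ppbp. Of 18 monocyte and macrophage genes 2 are listed, Ccr2 and Chil3. Their summed level was 2.77 to 6.11 FPKM in TMAO+IR and 1.06 to 1.83 FPKM in IR. These rest on few fragments, with 16 to 36 counts for Ccr2 and 28 to 45 counts for Chil3 in IR. Of 13 neutrophil genes 2 are listed, Slfn4, a schlafen gene, and Mmp8, which is also the matrix protease given above. Their summed level was 12.2 to 14.6 FPKM in TMAO+IR and 4.40 to 8.06 FPKM in IR. Most of it was Mmp8, at 8.89 to 11.7 FPKM in TMAO+IR and 3.53 to 6.75 FPKM in IR. Of 14 endothelial genes 1 is listed, Ackr1, at 1.83 to 2.58 FPKM in TMAO+IR and 0.80 to 0.88 FPKM in IR. It too rests on few fragments, with 41 to 64 counts in TMAO+IR and 20 to 21 counts in IR. The cardiomyocyte marker Myh7, a myosin heavy chain gene, had 27.5 to 56.5 FPKM in TMAO+IR and 6.29 to 12.5 FPKM in IR. None of the 16 fibroblast, 12 epicardial and mesothelial, 10 smooth muscle and pericyte or 11 cartilage, tendon and synovium genes is listed, and the unlisted markers were not analysed here. No listed marker was at 0 in any library.

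The annotation in the authors' deposited table separates the genes further. Thbs1 and Tnc are the only 2 listed genes of the ECM-receptor interaction pathway and the only 2 with fibronectin binding, and 2 of the 3 in focal adhesion and of the 7 with response to mechanical stimulus. Thbs1, Tnc and Sfrp2 are among the 26 listed genes placed in the extracellular region, of which 22 were higher and 4 lower. Sfrp2 is 1 of 3 listed genes of the Wnt signaling pathway, of which 2 were higher and 1 lower. Of all listed genes 81.9% were higher and 18.1% lower, so these counts set the terms apart from the list in no clear way. Prg4 carries no component or pathway term there. Its function terms, scavenger receptor activity and polysaccharide binding, are held by no other listed gene.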

How the data were processed

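Poly(A)-selected RNA of the injured heart region was sequenced in 6 libraries. Groups came from the sample titles, and the column prefix T-IR was matched to TMAO+IR, the only group besides IR. The submitters' processing notes name GRCm38 and, without role or order, HISAT2, StringTie 1.3.1, fastp 0.18.0, edgeR, DESeq2 and Bowtie2 2.2.8.

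The authors deposited whole-number counts and FPKM values per gene and library for 149 selected genes, with FPKM group means. The authors' deposited log2 fold change is that of the FPKM means, and no source used here gives the tool behind the deposited p-value and FDR. All 149 identifiers matched GENCODE M21.

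Relative library sizes were the median ratio of count to FPKM over 86 genes that reached 1 FPKM in all libraries, and 12 single-transcript genes set the absolute size. Size recovery and profile distances were tested on simulated data. Few genes there shifted in length, and the planted pair of like genes had high counts. Near genes at counts as low as those of Sfrp2 were therefore not covered. Group differences are log2 ratios of mean scaled counts, TMAO+IR over IR, without a test. TMM factors came from edgeR 4.0.16 (R 4.3.3), and other values from Python 3.11.15.

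The 4 genes, the lists and the rule for named genes were chosen with earlier results of these data known. The rule named the 4 genes, listed genes of the fixed lists, the 3 nearest genes by profile and genes at the limits of the list.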

Additional observations from a re-analysis of the deposited data

How the results depend on the processing

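The log2 ratios of Thbs1, Tnc, Prg4 and Sfrp2 kept their signs under every alternative run: deposited FPKM, pseudocounts, medians, TMM and leaving out each library. The groups of these genes did not overlap by scaled counts or FPKM, so none of these runs except TMM could change a sign. TMM scaling within the list, which centres genes chosen for their change, moved the log2 ratios to 0.34, 0.31, 0.0074 and -2.39. A pseudocount of 1 FPKM, large beside the level of Sfrp2, moved Sfrp2 to -0.60. Leaving out 1 library gave 1.11 to 1.80 for Thbs1, 1.13 to 1.71 for Tnc, 0.80 to 1.23 for Prg4 and -1.60 to -1.02 for Sfrp2. It gave differences of 2.19 to 3.11 for Thbs1 over Sfrp2, 2.21 to 3.05 for Tnc over Sfrp2 and 2.24 to 2.60 for Prg4 over Sfrp2. The remaining alternatives moved each value by less than the spread between replicates. The groups did not overlap in 145 listed genes by scaled counts and in 141 by FPKM. Depth limits Sfrp2 most, with counting error of 21.8% per library in TMAO+IR and 13.8% in IR. No paired analysis was possible because the labels tie the replicate numbers to no shared animal, litter or batch, and the comparison is a description without a test.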
